A study of Mus musculus with 3 samples.

Results

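Ribosome footprints left on coding sequences (CDSs) after harringtonine were compared with those found after cycloheximide, gene class by gene class, in primary cortical neurons from mouse. Of 20823 genes listed in all of the deposited CDS and UTR tables, each represented by its longest transcript, the 10692 with at least 100 CDS reads over the 2 libraries were used. The neurons came from cortices of CD-1 mouse embryos. Chx neurons received cycloheximide for 2 min. Harr neurons received harringtonine for 2 min and a cycloheximide pulse thereafter. Untreated neurons (WT) served only as an alternative reference, and every library was made from pooled dishes that were rinsed and lysed in buffers with cycloheximide. There was 1 library per treatment, so no difference below has a replicate check, no test was run, and all intervals cover counting error only. Whether cells or RNA per cell differed between the dishes cannot be told apart from translation in such libraries.

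Harringtonine holds ribosomes that have just begun translation at the start codon, while ribosomes already elongating finish the protein and leave the mRNA. Cycloheximide stops elongating ribosomes where they are. During a harringtonine treatment the CDS therefore empties from its start codon onwards, so that short CDSs lose a larger share of their ribosomes than long ones, and a gene class can be read only against genes of the same CDS length.

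The tables counted 35722483 reads in total for Chx and 9754412 for Harr, and the CDSs of the genes used here held 20111830 and 3754920 of them. As a check on the label, all 8 neuronal markers, among them Map2, Tubb3 and Snap25, had CDS reads in both libraries, with a summed 8334 CPM (CDS reads scaled to a common library total) in Chx and 10390.2 in Harr. The 4 astrocyte and radial glia markers were also present, at 345 CPM in Chx and 204 in Harr, with none at 0. Microglial markers summed to 6.48 and 1.59 CPM, with 1 and 2 of 4 markers at 0, oligodendrocyte markers to 11.5 and 5.56, with 2 of 4 at 0 in both, and vascular and fibroblast markers to 21.3 and 26.2.

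For each gene, the log2 ratio of CDS reads in Harr to those in Chx was formed from CPM of CDS reads, with 0.5 added to each count. The median ratio of the 200 genes nearest in CDS length was then subtracted; the 100 shortest and the 100 longest CDSs were set against the genes at their end of the order. This median is called the length expectation, and what remained after subtraction is called the residual. The length expectation was −0.72 on the log2 scale for a CDS of 300 nucleotides (nt), −0.34 at 1200 nt, 0.17 at 2000 nt and 0.65 at 6000 nt. The standard deviation over genes was 0.77 for the ratio and 0.62 for the residual, while the median standard error from counting was 0.15. Across the 10692 genes, which share both libraries and are not independent replicates, Spearman's rho with CDS length was 0.606 for the ratio and 0.00386 for the residual.

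**Figure D1:**
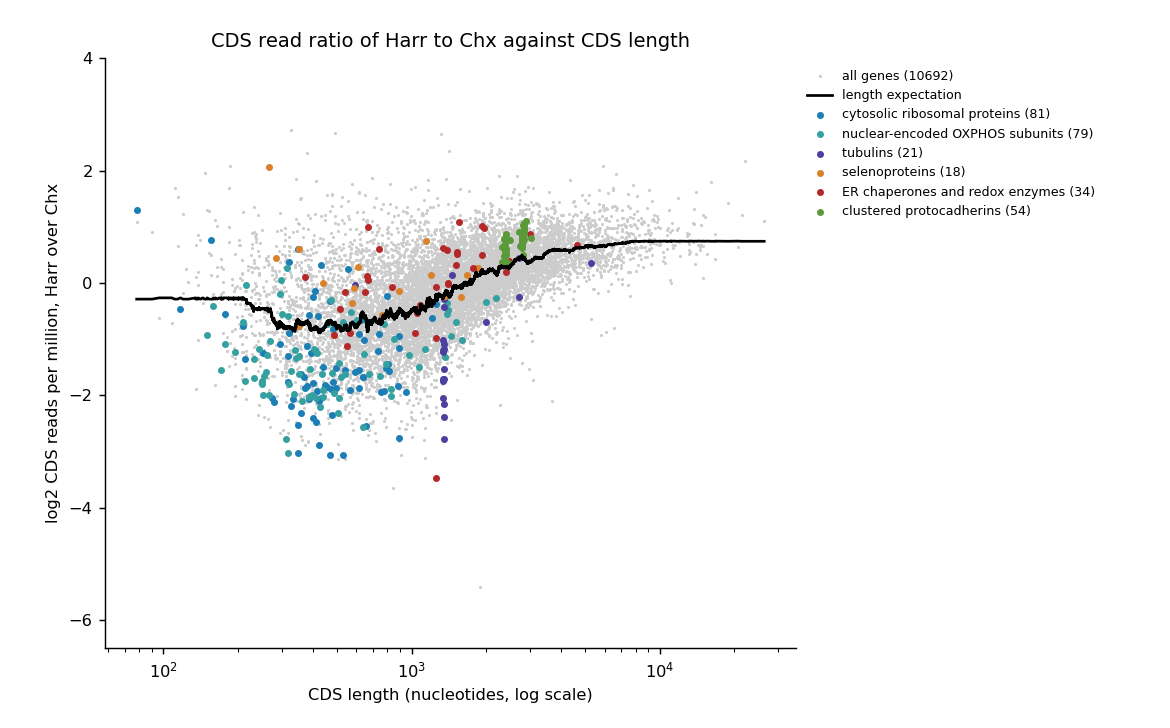
Log2 ratio of CDS reads (CPM) in Harr to those in Chx (vertical axis) against CDS length in nucleotides (horizontal log axis). Each grey point is 1 of 10692 genes, the black line is the length expectation and coloured points are members of 6 classes; tubulins, ribosomal proteins and OXPHOS subunits lie mostly under the line, clustered protocadherins, which share exons, above it.

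A gene was called retained when its residual was at least 0.5 with a counting interval above the length expectation, and depleted in the mirror case. Of all genes, 1858 (17.4%) were retained and 1666 (15.6%) depleted, and 50.1% had a residual above 0 and 49.9% below 0. These shares are the background for every count below. The calls separate genes from counting error within these libraries and say nothing of the spread between cultures.

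Of 60 gene classes, 22 had a median residual above 0 and 38 a median below 0. The 6 highest and the 6 lowest are described here. The other 48 lay between −0.40 for proteasome subunits and 0.22 for hnRNPs and neuronal RNA-binding proteins. At the low end stood tubulins, cytosolic ribosomal proteins, nuclear-encoded subunits of oxidative phosphorylation (OXPHOS), glycolytic enzymes, radial glia and astrocyte genes and enzymes of the TCA cycle. At the high end stood chaperones and redox enzymes of the endoplasmic reticulum (ER), selenoproteins, cadherins with the non-clustered protocadherins, clustered protocadherins, immediate early genes and spliceosomal proteins. Because the classes were taken from the ends of the order, their medians are a description. Together the 12 classes held 520 genes under 519 symbols, since Pcdha11 stands for 2 genes, and Aldoc and Selenof belong to 2 classes each.

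**Figure D2:**
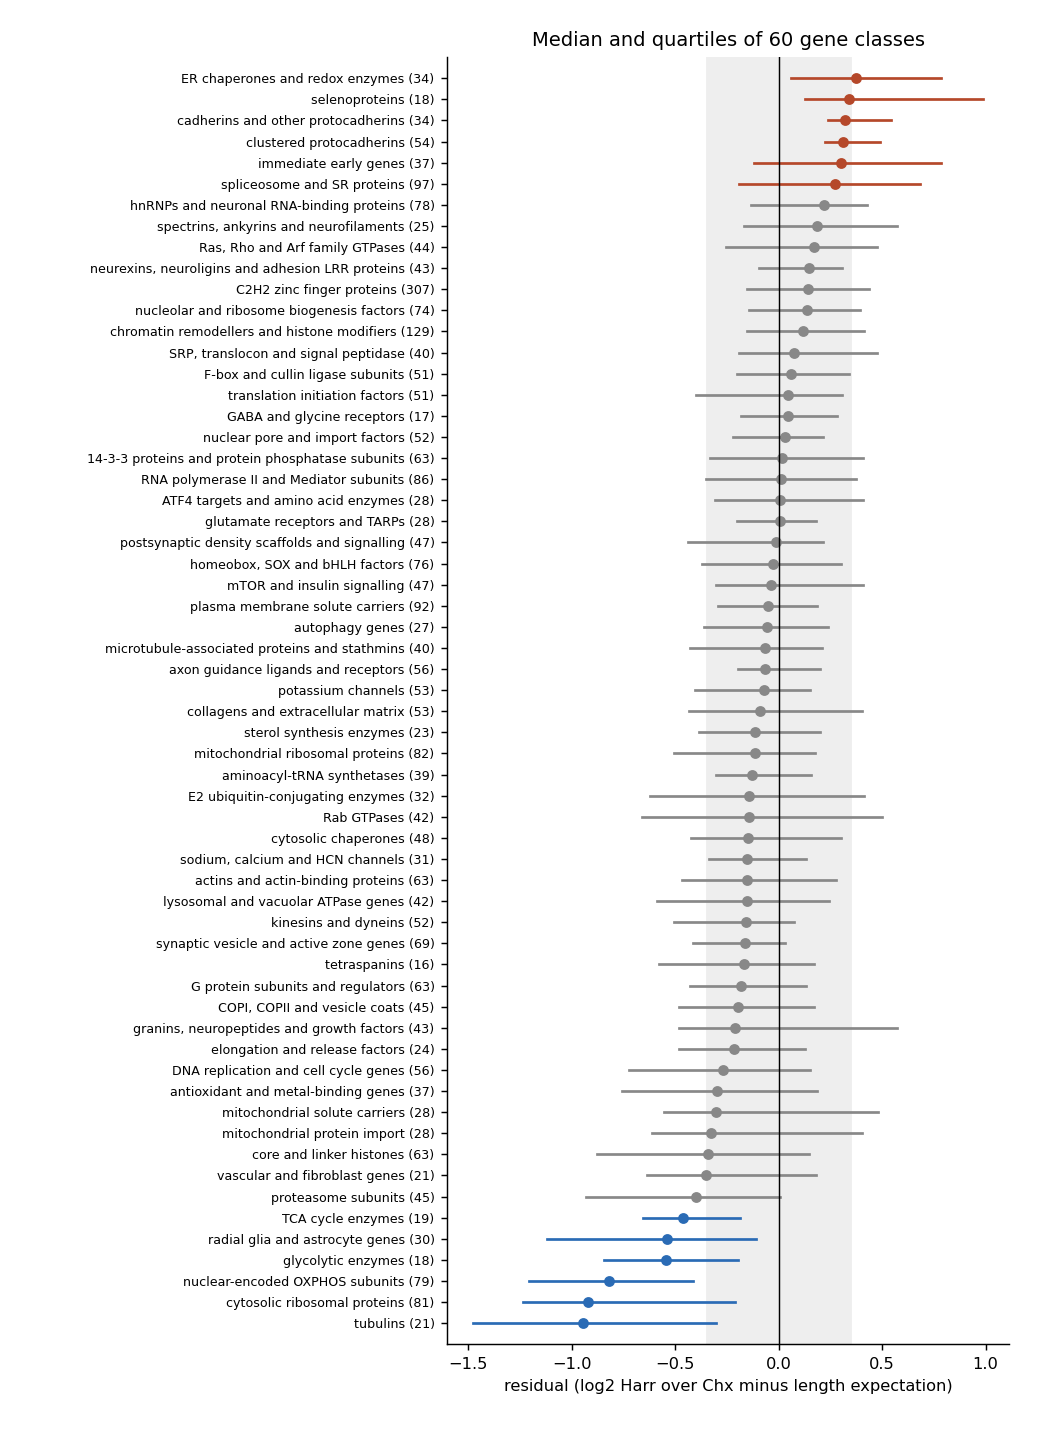
Median residual (points) and quartiles (bars) of 60 gene classes, with the number of genes in parentheses. The horizontal axis is the log2 ratio of Harr to Chx minus the length expectation and the grey band spans the quartiles of all genes; medians ran from −0.95 for tubulins to 0.37 for ER chaperones.

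Tubulins, the subunits of microtubules, were the lowest class. Their CDSs held 374118 reads in Chx and 22305 in Harr, which was 37.6% of the 59314 Harr reads that their lengths would have given. The median residual of 21 genes was −0.95 (interval of the median over genes −1.48 to −0.30), with 15 depleted and 1 retained. The tubulins that build the microtubule wall had the lowest values. All 6 alpha tubulins were depleted, with a median of −1.72, and all 7 beta tubulins, with a median of −0.97. The 8 gamma, delta and gamma-tubulin complex genes, which nucleate microtubules or sit at centrioles, had a median of −0.15, with 2 depleted and a range of −0.89 to 0.74 that overlapped the others. Their median Chx density was 9.43 RPKM (reads per kilobase, scaled to library size), against 333 in alpha and 1167 in beta tubulins, and the difference between the groups was not tested.

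Tubb2a, the most read tubulin (chr13:34074468-34077929, mm10, minus strand), had 74946 CDS reads in Chx and 5947 in Harr, where its length would have given 11638. Tubb2b, on the same chromosome, had 66305 and 3000, for a residual of −1.79 ± 0.03 (standard error from counts, here and below). Tubb5 had 59237 and 3301 reads and a residual of −1.48 ± 0.03. Every one of these genes was thus far under the length expectation, by margins many times the counting error. Tubb3, the neuronal beta tubulin, had 31927 and 2638 reads and a residual of −0.97. Among alpha tubulins Tuba1c had 59794 and 2126 reads (−2.18 ± 0.03), and Tuba3a had 640 and 17 (−2.57 ± 0.35). Tubulins resemble each other in sequence, so that reads may be split among them. Tuba1c shared 96.2% of its 25-nt words with other genes and Tubb2b 79.5%, but Tubb5 only 8.62%. The median of the 10 members with under 10% shared words was −0.77.

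Cytosolic ribosomal proteins, the protein part of the ribosome itself, followed. Of 81 genes, 52 were depleted and 8 retained, with a median residual of −0.92 (−1.07 to −0.52). They held 238243 reads in Chx and 19010 in Harr, or 66.5% of the number given by length. Proteins of the large subunit had a median of −1.02 over 50 genes, and those of the small subunit −0.52 over 31. The most read members did not move alike. Rpl4 had 17117 reads in Chx and 2456 in Harr and a residual of −0.09 ± 0.03, which was 0.18 against genes nearest in Chx read density as well as length. Rpl8 (chr15:76904313-76906279, plus strand) had 14344 and 708 and a residual of −1.31 ± 0.06. The lowest values were in Rpl23a, with 202 and 4 reads (−2.40 ± 0.69), and Rpl30, with 1198 and 27 (−2.36 ± 0.28). Rpl41, a very short protein, was the highest at 1.59, with 1545 and 712 reads. Nearly all of these values are uncertain, since 80 of the 81 genes share at least 10% of their words with other genes. These genes are also densely read, and against genes nearest in both length and Chx read density the median was −0.60.

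The next group makes energy in mitochondria. The nuclear-encoded subunits of the respiratory chain and of ATP synthase held 437716 reads in Chx and 35433 in Harr, 59.4% of the number given by length. Of 79 genes, 56 were depleted and 3 retained, and the median was −0.82 (−0.94 to −0.69). All 10 genes of complex III with cytochrome c were depleted, with a median of −1.15. ATP synthase had a median of −0.94 (13 of 17 depleted), complex I of −0.77 (22 of 36), complex IV of −0.71 (8 of 12) and complex II of −0.70 (3 of 4). No complex had a median above 0. Against genes matched on Chx read density as well as length, the class median was −0.51.

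Atp5b, the catalytic beta subunit of ATP synthase (chr10:128083327-128090119, plus strand), had 45022 reads in Chx and 4130 in Harr, with a residual of −0.94 ± 0.02. Its partner Atp5a1, the alpha subunit, had 35067 and 4032 reads (−0.64 ± 0.02), and Atp5g3, a ring subunit, had 18765 and 757 (−1.33 ± 0.05). All 3 share under 10% of their words with other genes. Ndufs8, an iron-sulphur subunit of complex I, was lower still, with 3453 and 108 reads and −2.02 ± 0.14. Cycs, cytochrome c, had 1032 and 23 reads (−2.26 ± 0.30), but all of its words recur in other genes. The highest member was Ndufb3, at 1.06, with 2364 and 533 reads and 46.7% shared words. Over the 40 members with under 10% shared words the median was −0.76.

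The enzymes that feed the respiratory chain lay on the same side. The TCA cycle list, which includes pyruvate dehydrogenase and the cytosolic isoenzymes of malate and isocitrate dehydrogenase, had a median of −0.46 (−0.66 to −0.16), with 9 of 19 genes depleted and 1 retained. Mdh2, the mitochondrial malate dehydrogenase (chr5:135778736-135790208, plus strand), had 21469 reads in Chx and 1146 in Harr and a residual of −1.32 ± 0.04. Its cytosolic counterpart Mdh1 had 39846 and 4552, and −0.22 ± 0.02. Matched on density as well, Mdh1 was at 0.09, and without the CDS segment of the start codon at 0.08. The start segment of Mdh1, of 3 nt, held 0 reads in both libraries. The latter change therefore came from the genes it was compared with, not from its own reads. The 2 isoenzymes have CDSs of nearly equal length, 1017 and 1005 nt, so that the length expectation hardly enters this contrast. Pdhb, a subunit of pyruvate dehydrogenase, had 2121 and 147 reads (−0.94 ± 0.12), and shares 65.6% of its words with other genes.

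Glycolytic enzymes had a median of −0.54 (−0.85 to −0.16), with 10 of 18 depleted and 1 retained. Aldoa, aldolase A, had 22947 reads in Chx and 1995 in Harr (−0.85 ± 0.03). Pgk1, phosphoglycerate kinase, had 16680 and 1837 (−0.51 ± 0.04), and Pkm, pyruvate kinase, 16502 and 1998 (−0.57 ± 0.03). The step of phosphofructokinase, which commits sugar to the pathway, did not depart from length, with Pfkm at −0.01 and Pfkp at 0.01, and neither did hexokinase Hk1, at 0.03. Tpi1, triosephosphate isomerase, was the retained member, at 1.00, with 6823 and 1805 reads. The lowest values were those of Gapdh, with 819 and 26 reads (−2.05 ± 0.28), and Aldoc, with 831 and 31 (−1.92 ± 0.26). The longest Gapdh transcript carries few of the gene's reads, and on its most read transcript the residual was 0.0023. Pgk1 and Gapdh share all of their words with other genes, Pkm 87.1%, Aldoa 52.6% and Tpi1 42.9%. The 7 members with under 10% shared words had a median of −0.15.

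Radial glia and astrocyte genes, which mark the glial progenitors and astrocytes that cortical cultures can hold, had a median of −0.54 (−0.89 to −0.24) over 30 genes, with 14 depleted and 2 retained. Sparc, a secreted matrix protein, had 1057 reads in Chx and 23 in Harr and a residual of −2.57 ± 0.30. With its most read transcript the value was −0.71. Aldoc, the glial aldolase given above, followed at −1.92. The transcription regulators Id3, with 4 reads in Harr, and Id4 had −2.02 and −1.21, Apoe −1.29, the intermediate filament Vim −1.14 and the glutamate transporter Slc1a3 −1.04. The largest member, Ptprz1, a receptor phosphatase with 22683 and 6379 reads, was at −0.12 ± 0.02. Cst3, the protease inhibitor cystatin C, was at −0.29 ± 0.05 with 11716 and 996 reads. Matched on density as well, Cst3 was at 0.10 and Ptprz1 at 0.01.

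On the other side, 6 members lay above 0 and 2 were retained. Dbi, which binds acyl-CoA, was the higher of these, with 1571 and 524 reads. Fabp7, the brain fatty acid-binding protein, was at 1.07 ± 0.04 with 8358 and 1866 reads. Most of its Harr reads, 1727, lay in the 73-nt CDS segment of the start codon, against 3735 in Chx, and without that segment its residual was −1.42. The class median moved to −0.20 when 1000 CDS reads per gene were required, which left 20 members. The part that cell composition plays in the values of this class was not tested.

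At the other end, ER chaperones and redox enzymes fold secreted and membrane proteins and form their disulfide bonds. They held 172516 reads in Chx and 43953 in Harr, 137% of the number given by length. The median residual of 34 genes was 0.37 (0.11 to 0.63), with 13 retained and 2 depleted. Hspa5 (BiP), the main HSP70 chaperone of the ER (chr2:34772322-34776113, plus strand), had 33053 reads in Chx and 12135 in Harr, where its length would have given 7020. Its residual was 0.79 ± 0.02, and it shares none of its words with other genes. Calnexin (Canx), with 20325 and 4555 reads, was at 0.22 ± 0.02. Hsp90b1 (GRP94), with 21031 and 4481 reads, stood at −0.09 ± 0.02 and so did not share the direction.

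Among the disulfide isomerases Pdia3 (0.61), Pdia4 (0.79), Pdia6 (0.89) and P4hb (0.63) were all retained, as was Pdia5, at 1.15 ± 0.22 with only 145 and 57 reads. Sdf2l1, a chaperone cofactor, was the highest, with 945 reads in Chx and 350 in Harr (1.84 ± 0.09), and its relative Sdf2 was at 0.90. The depleted pair were Txndc5 and Serpinh1 (HSP47), the chaperone of collagen. Serpinh1 had 1156 reads in Chx and 19 in Harr, for a residual of −3.25 ± 0.33. Of the thioredoxin-domain members, Txndc9 and Txndc17 are cytosolic proteins that the name pattern of the list picked up, with residuals of −0.18 and 0.80.

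Selenoproteins carry selenocysteine, an amino acid that is inserted at a UGA codon which would otherwise stop translation, and many of them are antioxidant enzymes. In the 18 genes, 8 were retained and none depleted, and the median was 0.34 (0.12 to 1.05). Over the 10 genes with at least 1000 CDS reads it was 0.75. They held 23318 reads in Chx and 4648 in Harr, 153% of the number given by length. By the definition of the class its genes share the in-frame TGA, which the residual did not use and which was found in 17 of the 18. The exception is Selenoo, whose longest transcript has no in-frame TGA before its stop codon. The codon is shown for the 8 retained genes and for Selenof and Txnrd1, which were not retained, with up to 12 bases on each side, 5′ to 3′ on the mRNA strand, from the GENCODE M21 transcripts (mm10). Capitals mark the TGA, and the coordinates are those of the codon.
Gpx1 (chr9:108339451-108339453, plus strand): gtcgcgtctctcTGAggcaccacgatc
Selenoh (chr2:84670381-84670383, minus strand): cattgtacgagcTGAcgcgtgtacggc
Selenoi (chr5:30266964-30266966, plus strand): ccaaactcagatTGActaggaatggaa
Selenok (chr14:29973440-29973442, plus strand): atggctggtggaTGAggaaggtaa
Selenom (chr11:3516273-3516275, plus strand): acctgtggaggaTGAcagttgaatcgc
Selenop, the first of 10 (chr15:3274848-3274850, plus strand): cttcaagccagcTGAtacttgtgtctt
Selenot (chr3:58585238-58585240, plus strand): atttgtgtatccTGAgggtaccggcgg
Selenow (chr7:15920464-15920466, minus strand): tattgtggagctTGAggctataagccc
Selenof (chr3:144590645-144590647, plus strand): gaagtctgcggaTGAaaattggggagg
Txnrd1 (chr10:82896037-82896039, plus strand): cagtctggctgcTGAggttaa

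The position of this codon differed among retained genes. In Selenow, a small redox protein, it is codon 13, in Gpx1, glutathione peroxidase, codon 47, and in Selenok, an ER membrane protein, codon 92, followed by 9 nt including the stop codon. Selenow had the highest residual of the class, 2.58 ± 0.08, from 722 reads in Chx and 561 in Harr. WT had 1611, and against WT the residual was 1.16. Selenoh, a nucleolar redox protein, had 370 and 105 reads (1.31 ± 0.16), and Selenok 2780 and 704 (1.21 ± 0.06), although 89.3% of its words recur elsewhere. Selenoi, which makes phosphatidylethanolamine, had 3362 and 689 reads (0.50 ± 0.06). Selenof, an ER protein, had 3345 and 329 reads and −0.21 ± 0.08, but 0.08 without the start segment and 0.20 when matched on density as well. The thioredoxin reductases Txnrd1, Txnrd2 and Txnrd3, whose TGA is separated from the stop by 1 codon, lay at 0.12, −0.16 and 0.14.

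Reads of these 17 genes were also divided by CDS exon segment, the finest unit counted. These reads are among those that ordered the classes, so only their place along the CDS is described. Segments before the one with the TGA held 14576 reads in Chx and 2261 in Harr, a pooled log2 ratio of −0.27 (counting interval −0.33 to −0.20). Segments that hold the TGA had 5670 and 1274 reads, 0.27 (0.18 to 0.35), and segments after it 2739 and 1057, 1.05 (0.94 to 1.15). The parts differ in their genes, since 14, 17 and 10 genes had reads in them, and over all genes the ratio also differed with distance from the start codon. In Selenom the segments before the TGA held 612 and 114 reads and those after it 281 and 33, and in Selenoh 184 and 66 against 31 and 6, the reverse order. The value after the TGA rests largely on Selenow. In Selenow 560 of the 561 Harr CDS reads lay after the segment with the TGA, and without it the ratio was 0.35 (0.21 to 0.49), from 2092 and 497 reads.

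Cadherins and their relatives hold neighbouring cells together through extracellular repeats. The list of cadherins, non-clustered protocadherins, FAT and CELSR proteins and catenins held 151854 reads in Chx and 48944 in Harr, where their lengths would have given 39931. The median of 34 genes was 0.32 (0.24 to 0.48), with 10 retained and none depleted. All 10 non-clustered protocadherins were above 0, with a median of 0.54 and 6 retained, and 12 of 14 classical and type II cadherins, with a median of 0.30. The 5 catenins, which bind cadherin tails inside the cell, had a median of −0.01, from −0.50 to 0.35, and overlapped the cadherins, of which Cdh20 was at −0.32 and Cdh4 at −0.10. The difference between these groups was not tested.

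Pcdh9 (chr14:93015512-93888732, minus strand) had 6743 reads in Chx and 3396 in Harr and the highest residual of this class, 0.85 ± 0.03. Pcdh8, the most read protocadherin, had 17233 and 5016 (0.19 ± 0.02). Fat1, a giant cadherin with a CDS of 13773 nt, had 14235 and 6651 (0.58 ± 0.02, against mostly shorter genes), and Cdh12, a type II cadherin, 862 and 330 (0.76 ± 0.09). Ctnnb1, beta-catenin, was the lowest, with 23388 and 3749 reads and −0.50 ± 0.03. With WT as the reference the class median was 0.24.

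The clustered protocadherins, which give neurons their surface identity, sit in 3 neighbouring gene arrays on chromosome 18. The genes of the alpha and of the gamma cluster each end in the same exons, so that their 54 values are not separate measurements. All 54 had a residual above 0, between 0.07 and 0.71, with a median of 0.31 (0.26 to 0.36), 11 retained and none depleted. The alpha cluster had a median of 0.54 (8 of 12 retained), the beta cluster, whose genes share no exon, 0.30 (3 of 20) and the gamma cluster 0.25 (none of 22).

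Much of this order rests on the shared exons. In 11 of the 12 alpha genes the same 1709 reads in Chx and 703 in Harr were counted again for each gene, and in all 22 gamma genes the same 2303 and 729. Counted once, the log2 ratio of these reads was 1.14 ± 0.06 in the alpha cluster and 0.76 ± 0.06 in the gamma cluster. The segments of 1 gene only, from the start codon through the long variable exon, were therefore set against genes with a CDS as long as those segments, a comparison chosen after seeing the data. The median was then 0.35 (0.28 to 0.42) over the 54 genes, with 52 above 0, 14 retained and none depleted. By cluster it was 0.36 for alpha, 0.33 for beta and 0.36 for gamma, so that the alpha cluster no longer stood above the others.

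Pcdhac1 had the highest whole-CDS residual, 0.71, but of its 1828 Chx and 730 Harr reads only 119 and 27 lay in its own exon, and there the residual was 0.06. Pcdha8 had 475 and 156 reads in its own exon (0.58), Pcdha12 2455 and 712 (0.38), Pcdhgc3 3300 and 1069 (0.55) and Pcdhgc4 3816 and 892 (0.06). The highest gene by its own exon was Pcdhga10, at 0.76 with 1063 and 394 reads, and the lowest Pcdhga6, at −0.13 with 743 and 150. All 54 genes have at least 10% of their words in common with other genes, and 36 overlap exons of another gene on the same strand. The whole-CDS median was 0.24 with the 50 nearest genes and 0.37 with 5 length classes.

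Immediate early genes are switched on within minutes of neuronal activity, and many encode transcription factors. The 37 genes had a median of 0.30 (0.10 to 0.53), with 13 retained and 4 depleted, and 133% of the Harr reads given by length. The FOS, JUN, EGR and NR4A factors and their like had a median of 0.47, with 8 of 17 retained and none depleted. A second group of 19 genes had a median of 0.19, with 4 retained and 4 depleted, and Ccn1 stood in neither group. Klf6, a zinc finger factor (chr13:5861639-5867283, plus strand), had 3624 reads in Chx and 1391 in Harr (1.64 ± 0.05). Ccn1, a secreted matrix-associated protein, had 838 and 369 (1.72 ± 0.09), the highest value of the class. Jun was at 1.04, Egr1 at 0.86, Junb at 0.85 and Nr4a1 at 0.74.

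Among the most read members of this class, Fos had 12450 reads in Chx and 2349 in Harr (0.47 ± 0.03). WT held 7175, which gave 0.95 against WT. Rgs2, a regulator of G protein signalling, had 16106 and 2820 (0.49 ± 0.03), and the nuclear receptor Nr4a3 11431 and 2858 (0.27 ± 0.03). These values depended on the start segment, in opposite directions. Without it Rgs2 was at 0.04 and Nr4a3 at 1.07. Dusp4, a MAP kinase phosphatase, was the lowest, with 5615 and 364 reads and −1.18, followed by Homer1 at −1.09. The class median was 0.63 without the start segment, 0.54 with at least 1000 CDS reads per gene and 0.79 against WT, with the same sign throughout.

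Spliceosomal and SR proteins remove introns from pre-mRNA. They were the largest of the described classes, with 97 genes, 38 retained and 14 depleted, a median of 0.27 (0.14 to 0.50) and 131% of the Harr reads given by length. RBM proteins had a median of 0.56 (14 of 28 retained), SR proteins 0.41 (6 of 14), the SF3, U2AF and PRPF factors 0.24 (10 of 31) and the Sm, Lsm and other snRNP proteins 0.15 (8 of 24, with 6 depleted). Srrm2, a scaffold of nuclear speckles (chr17:23806961-23824225, plus strand), had 9964 reads in Chx and 5408 in Harr (0.80 ± 0.02). The RNA helicase Ddx17 had 9121 and 3602 (0.91 ± 0.03). Its close relative Ddx5 had 10370 and 1459 on its longest transcript (−0.09 ± 0.04), with 63.7% shared words. On its most read transcript, whose CDS has 1848 nt against 1221, the value was 0.54. Srsf12 had 416 and 146 reads (1.46 ± 0.14). U2af1l4 was at 1.58 ± 0.15, but all of its words occur in other genes. The cold-inducible Rbm3 was the lowest, at −1.81, with 348 and 11 reads and 94.3% shared words.

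**Figure D3:**
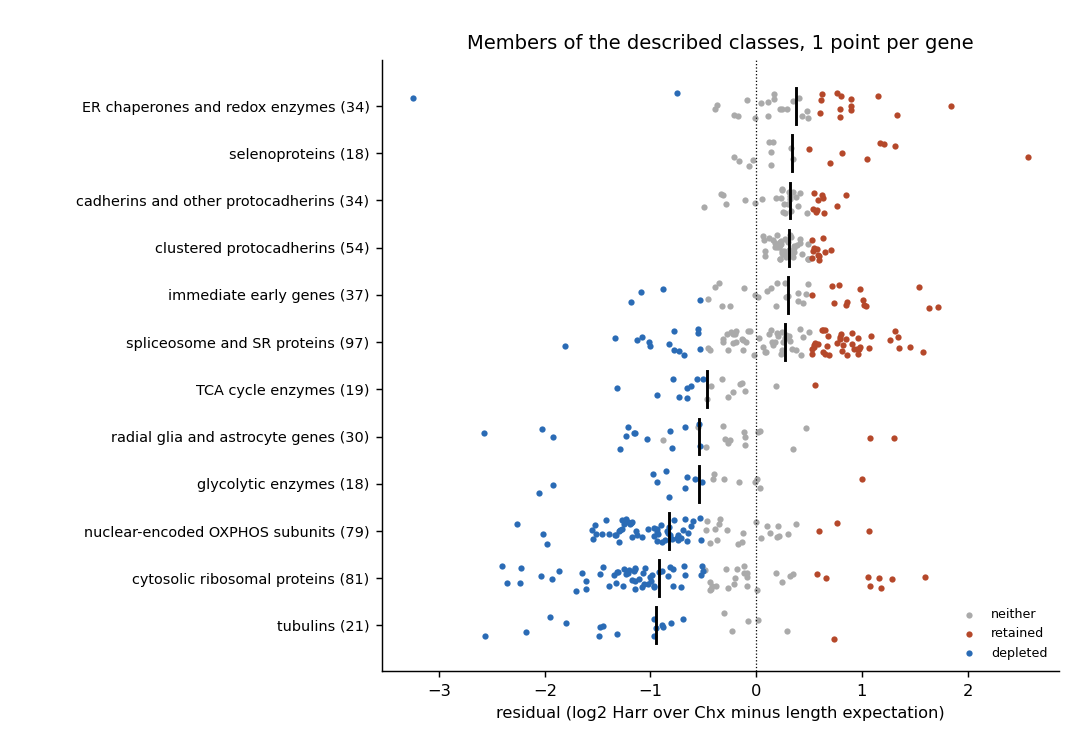
Residuals of every member of the 12 described classes, 1 point per gene, with the class median as a vertical bar; red points were called retained, blue points depleted and grey points neither. All clustered protocadherins, many of which share exons, lie above 0, and ribosomal proteins spread from −2.40 to 1.59.

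To see where along the CDS the classes departed, reads of exon segments of at most 600 nt were pooled by how far the segment midpoint lay from the start codon. Over all genes the log2 ratio of Harr to Chx was −0.56 within 300 nt, −1.01 at 300 to 900 nt, 0.54 at 900 to 1500 nt and 1.08 beyond. At 300 to 900 nt, genes with CDSs under 1200 nt had −1.07 and those of 1200 to 4000 nt −0.99. Genes with CDSs over 4000 nt had −0.57. The classes differed most in this window of 300 to 900 nt, which was not matched for CDS length. There tubulins had −3.02 (−3.15 to −2.89), but the segments used held only 43.8% of the reads of that class, and 1 segment gave 60.8% of its Chx reads in this window. Glycolytic enzymes had −2.10, TCA cycle enzymes −1.89, OXPHOS subunits −1.72, radial glia genes −1.62 and ribosomal proteins −1.56. Immediate early genes had −0.13 (−0.17 to −0.08), selenoproteins −0.14, spliceosomal proteins −0.35 and ER chaperones −0.43. Cadherins, at −1.20, were under the value of all genes in this window and above it beyond 1500 nt, at 1.28. At 900 to 1500 nt ER chaperones had 1.23, with 15688 Harr reads against 35716 in Chx, while glycolytic enzymes had −0.0020.

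Pooled ratios are dominated by the most read genes, so that the window from 300 to 900 nt was also read gene by gene. The median over genes was −0.97 for all 8176 genes with at least 20 reads there. It was −2.06 for glycolytic enzymes, −1.87 for tubulins, −1.80 for TCA cycle enzymes and for OXPHOS subunits, −1.55 for ribosomal proteins and −1.54 for radial glia genes. The high classes had −0.12 for selenoproteins, −0.22 for immediate early genes, −0.48 for spliceosomal proteins, −0.50 for ER chaperones and −0.82 for cadherins. The reads of this window are part of those that ordered the classes, so that the side on which a class lies here adds nothing, and only its place along the CDS is described. Clustered protocadherins had no segment short enough within 1500 nt and could not be placed.

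**Figure D4:**
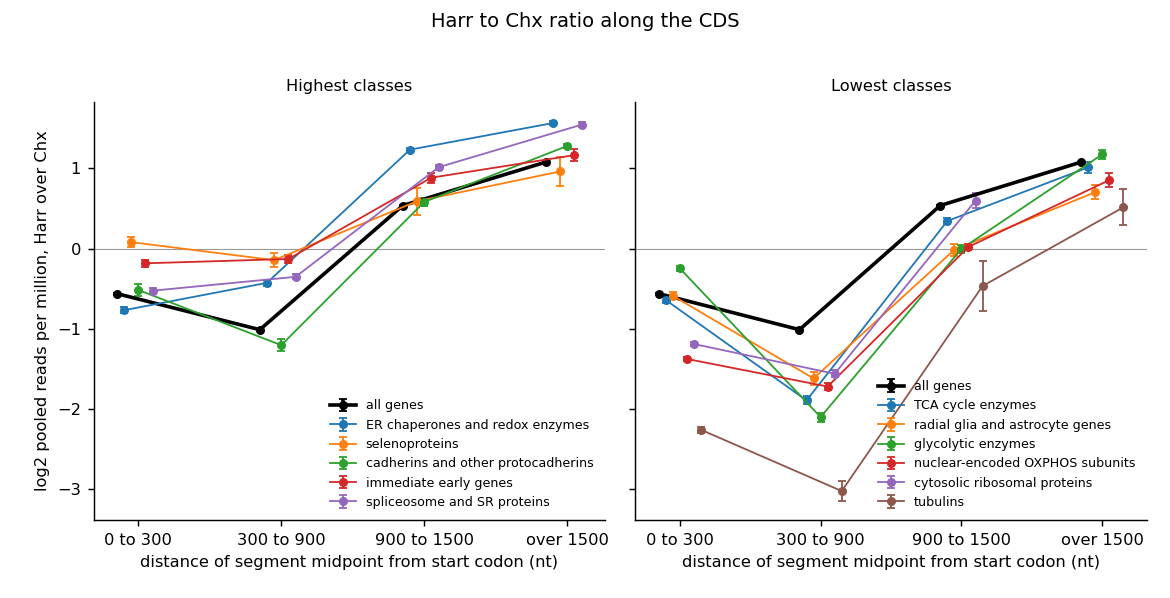
Pooled log2 ratio of Harr to Chx reads in CPM (vertical axis) in CDS segments by midpoint distance to the start codon in nucleotides (horizontal axis), for all genes (black) and the described classes, with 95% counting intervals. At 300 to 900 nt the lowest classes lie between −3.02 and −1.56 and all genes at −1.01.

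The start segment was then set against the rest of the CDS within genes that had at least 20 reads in each. Over 7666 genes the median ratio was 0.13 in the start segment and −0.10 in later segments. The start was higher in 4512 of them. In ribosomal proteins the median was −0.33 at the start and −2.06 later, with the start higher in 28 of 33 genes. OXPHOS subunits had −0.50 and −1.87 (55 of 69 genes), glycolytic enzymes 0.37 and −1.03 (12 of 15) and TCA cycle enzymes 0.48 and −0.97 (16 of 17). In these classes the later segments had the lower medians. Immediate early genes had the reverse order, −0.35 at the start and 0.19 later (10 of 28 genes), as did ER chaperones, −0.20 and 0.16 (14 of 32), and cadherins, 0.66 and 0.87 (9 of 32). The high classes did not go 1 way, since spliceosomal proteins had 0.31 at the start and −0.16 later (45 of 68), and in selenoproteins the start was higher in 10 of 15 genes. Start segments differ in length between genes, and this comparison was not matched for it.

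**Figure D5:**
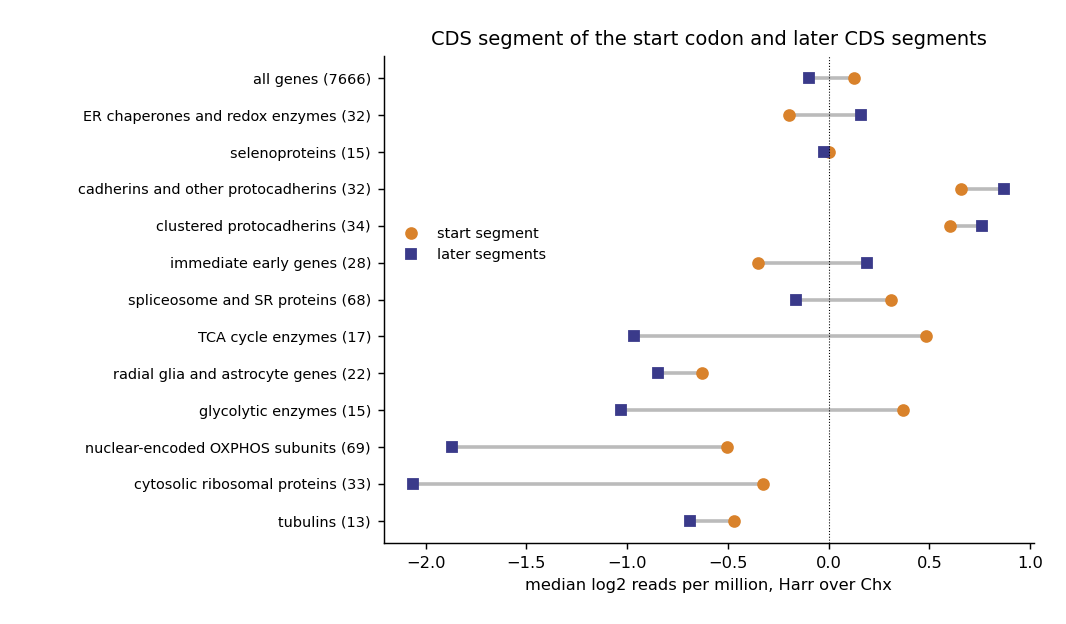
Median log2 ratio of Harr to Chx reads in CPM in the CDS segment of the start codon (orange circles) and in later CDS segments (blue squares), with the number of genes in parentheses. Within genes, the median of start minus later was 0.29 over all genes, and the widest gaps are in ribosomal proteins, OXPHOS subunits, glycolytic and TCA cycle enzymes; later segments of clustered protocadherins are exons shared between genes.

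Reads in the 5′ UTR, which the residual did not use, set the described classes apart much less. Counting by the 5′ end of a read places ribosomes that sit on the start codon in the 5′ UTR. The median log2 ratio of 5′ UTR reads of Harr to Chx was 2.40 over 9726 genes, and the medians of the 12 classes ran from 2.29 for cadherins to 2.74 for clustered protocadherins. Tubulins, the lowest class in the CDS, had 2.73 over 16 genes, and OXPHOS subunits 2.64 over 74. In Tubb2b the 5′ UTR held 1912 and 5421 reads (log2 ratio 3.92), while the CDS ratio was −2.05. Atp5b had 1159 and 3274, also 3.92, with a CDS ratio of −1.03. Hspa5 had 3245 and 3293 there, 2.44, and a CDS ratio of 0.98. Atp5a1 had 6875 and 1318, a 5′ UTR ratio of only 0.04, but its most read transcript has a longer CDS (1662 nt against 1512), so that these reads may include coding ones. Glutathione peroxidases and thioredoxin reductases had a lower 5′ UTR median, 1.08 over only 3 genes. Few reads lie in the 3′ UTR. Genes were kept there when Harr and Chx together held at least 10 reads, so a gene could enter on its Harr reads alone. Genes with few reads in both were left out, and the medians depend in part on this selection. The median 3′ UTR ratio was 3.61 over all 4975 genes kept, 6.96 in 9 tubulins, 6.30 in 15 glycolytic and 6.23 in 17 TCA cycle enzymes. It was 4.33 in OXPHOS subunits and 3.92 in ribosomal proteins, with radial glia genes between ribosomal proteins and all genes. Of the classes with high CDS residuals, selenoproteins were below all genes, at 3.31 over 9 genes. The others were above all genes, such as cadherins with 3.89 and immediate early genes with 3.66. The high and the low classes thus overlapped in this ratio.

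Proteins that enter the secretory pathway usually begin with a hydrophobic signal. Genes were therefore grouped by a 19-residue stretch with a mean Kyte-Doolittle hydropathy of at least 1.6. The 1286 genes with such a stretch starting in the first 30 residues had a median residual of 0.10 (0.07 to 0.15), with 9.88% depleted. The 2231 genes with only later stretches had −0.04, and the 7140 without any −0.0011. Under 1200 nt the N-terminal group had 0.16 (0.08 to 0.24), with 27.1% retained and 14.3% depleted, where genes without any stretch had 23.5% and 23.6%. The median was 0.08 (0.04 to 0.12) between 1200 and 4000 nt, and 0.06 (−0.07 to 0.13) over 4000 nt. Genes without any stretch had −0.03, 0.0026 and 0.05 in these length bands. The N-terminal stretch was found in 1286 of 10692 genes, in 20 of 34 ER chaperones and in 10 of 34 cadherins. Other classes rich in it lay on both sides of 0. It was found in 34 of 53 collagen and matrix genes (median residual −0.09) and 21 of 42 lysosomal genes (−0.15). Granins, neuropeptides and growth factors had it in 24 of 43 genes (−0.21). Neurexins, neuroligins and adhesion LRR proteins had it in 25 of 43 genes (0.15). Among low classes the stretch was found in 7 of 30 radial glia genes, 6 of 79 OXPHOS subunits and 2 of 18 glycolytic enzymes. Tubulins, ribosomal proteins and TCA cycle enzymes had none. Of the remaining high classes, clustered protocadherins had it in 13 of 54 genes, selenoproteins in 5 of 18 and immediate early genes in 2 of 37. Spliceosomal proteins had none.

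The most densely read genes had the lower residuals. The quintile with the highest Chx CDS density had a median of −0.18 (quartiles −0.60 to 0.23), while the medians of the other density classes lay between 0.0077 and 0.05. Spearman's rho between residual and density was −0.128 over all genes. Density was computed from the Chx reads that are also the denominator of the ratio, so part of this relation is built in. Matching on density uses the same reads. In Chx the median density was 406 RPKM in OXPHOS subunits, 219 in glycolytic enzymes and 195 in ribosomal proteins, against 24.8 over all genes. Against genes matched on density as well, the median was −0.39 in glycolytic enzymes and −0.26 in TCA cycle enzymes. Genes with 1 CDS segment (749) had a median of 0.06, and the quartile with the shortest 5′ UTRs 0.05.

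Single genes were also ranked without regard to class. Among genes with at least 500 CDS reads and under 10% shared words, the highest residual in CDSs under 1200 nt was that of Spcs1, a subunit of signal peptidase, at 3.53 ± 0.05, with 1421 reads in Chx and 1753 in Harr. Its start segment alone held 1723 of the Harr reads, and without that segment Spcs1 was at 0.08. Rnf227 had 329 and 208 reads (2.48 ± 0.13). After Sparc, the lowest in this band were the cardiac actin Actc1, with 1338 and 41 reads (−2.16 ± 0.23), and the cell cycle regulator Ccnd1, cyclin D1, with 499 and 15 (−2.05 ± 0.37).

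Between 1200 and 4000 nt, Angptl6, a secreted protein, was highest, with 351 reads in Chx and 237 in Harr (2.03 ± 0.12), before Baiap2l2 (1.74) and Phlda1 (1.67). After Serpinh1, the sodium pump subunit Atp1a4 had 803 and 45 reads (−2.14 ± 0.22), and −0.79 against WT, where it had 240. The glutamine transporter Slc38a3 had 491 and 21 reads, where its length would have given 85.7. Over 4000 nt the spectraplakins, which link actin to microtubules, led, with Macf1 at 1.43 ± 0.04 (3544 and 2981 reads) and Dst at 1.05 ± 0.06 (1586 and 1025). Their CDSs, of 22068 and 16140 nt, are among the longest, and the expectation used for them, 0.74, came mostly from shorter genes, so that length was not matched for them. The chromatin remodeller Arid1a followed at 1.01 ± 0.04. The lowest were Naca, at −1.50 ± 0.07 with 4232 and 453 reads on a long isoform of 6564 nt, Cul9 at −0.98 and Shroom2 at −0.87. All of these residuals kept their sign with WT as the reference. Of those over 4000 nt, Macf1 (0.86), Dst (0.52), Arid1a (0.78) and Cul9 (−0.58) were then nearer to 0.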

How the data were processed

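Ribosome footprints of 3 libraries of primary cortical neurons were used as deposited: per library, the authors gave read counts for the exon segments of 5′ UTRs, CDSs and 3′ UTRs of each transcript, made with Plastid on reads aligned to mm10 after ribosomal reads and duplicates had been removed. Per the file headers, reads of 25 to 100 nt were assigned by the position of the 5′ base (offset 0). For these samples the study's methods name TopHat alignments in the search for open reading frames, and Rsubread for the related Plastid counts. The sources used here do not say which alignments these counts come from. The same deposited tables hold a coverage signal (counts per nucleotide) and RPKM values that the authors computed from these counts; neither was used, and densities were computed from the counts. Of 142446 transcript identifiers, 99.1% matched GENCODE M21 with their version.

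The members and gene lists were chosen with earlier results of these data known. Per gene, the longest transcript was taken and at least 100 CDS reads over Chx and Harr were required. Ratios used CPM of CDS reads with 0.5 added to each count, and the length expectation was the median of 200 genes, 100 on each side in CDS length, or the 200 at the end of the order for the 100 shortest and 100 longest CDSs. A call needed a residual of at least 0.5 and a 95% interval from Poisson counting error that left out the expectation. Intervals of class medians come from order statistics and describe the genes of a list, not replicates. With 1 library per treatment no test was run. Intervals cover counting error only. Classes with at least 10 genes were ordered by their median, and the 6 at each end were described. Within a class the text names the 3 genes with the most reads and the 2 farthest from 0 in the direction of the class among genes with at least 200 CDS reads, and over all genes the 3 highest and 3 lowest in each of 3 length bands. Further members were named after their values had been seen. Some genes that this rule picks are not reported here. Shared words are 25-nt stretches of a CDS found in transcripts of another gene. The scripts were tested on simulated data. Python 3.11.15, numpy 2.4.6, pandas 2.3.3, scipy 1.17.1, bedtools 2.31.1 and matplotlib 3.10.9 were used. The alternatives were other neighbour sets, read minimums, added values, transcripts, segments, gene filters and WT as the reference.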

Additional observations from a re-analysis of the deposited data

How the results depend on the processing

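No class median changed sign under any alternative: 120 values stayed within the interval of the reported median over genes and 11 did not, as follows. Clustered protocadherins were at 0.24 with the 50 nearest genes, 0.37 with 5 length classes and 0.40 against WT. Against WT, immediate early genes were at 0.79 and cadherins at 0.24. Requiring 1000 CDS reads gave 0.54 for immediate early genes, −0.62 for OXPHOS subunits and −0.20 for radial glia genes. Immediate early genes were at 0.63 without the start segment, OXPHOS subunits at −0.51 when also matched on density, and glycolytic enzymes at −0.15 with under 10% shared words. Within wide intervals, selenoproteins were at 0.75 with 1000 CDS reads, spliceosomal proteins at 0.17 against WT, and with 5 length classes immediate early genes at 0.45 and TCA cycle enzymes at −0.31. On segments of 1 gene only, an alternative added after seeing the data, clustered protocadherins were at 0.35. Ribosomal proteins and clustered protocadherins had too few genes with under 10% shared words for a value. Retained and depleted genes numbered 579 and 521 at a residual of 1, and 735 and 670 with 1000 CDS reads. The median ratio before the length expectation was −0.60 when scaled to the header totals and −0.05 as reported, a shift that the residual removes by its construction. The 5′ UTR ratio of clustered protocadherins was 3.02 without overlapping genes. Genes with only later hydrophobic stretches were at 0.0018 instead of −0.04 with a hydropathy of at least 1.9. The cause of these differences was not tested. No paired analysis was possible because each treatment had 1 library. Depth limits single genes with few Harr reads, such as Rpl23a with 4.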
